A study of Mus musculus with 12 samples.

Results

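Nitric oxide (NO) and the natriuretic peptides both signal through cyclic GMP (cGMP), and the genes described here make, receive, carry and end that signal. They are the NO synthases Nos1, Nos2 and Nos3, the natriuretic peptide receptors Npr1, Npr2 and Npr3, the cGMP-dependent protein kinases Prkg1 and Prkg2, and the phosphodiesterase Pde5a. They were taken by symbol from the gene count table, and all 9 were found among its 23420 genes. RNA was sequenced in 12 libraries from the inguinal white adipose tissue (iWAT) of male C57BL/6 mice aged 10 weeks, in 4 groups of 3 libraries. The mice were kept either at thermoneutrality (TN, 30 °C) for 1 week or in the cold (4–6 °C) for 3 days, so temperature and length of exposure differ together. WT mice were HIF2a loxP/loxP, with loxP sites in both copies of Epas1, the gene of HIF2α, and no Cre. HIF2α AKO mice were Adipoq-Cre HIF2a loxP/loxP, and the Adipoq promoter drives Cre in adipocytes, so Cre and the deletion are never apart. The comparisons ask how these genes differ upon cold in each genotype, and between the genotypes at each temperature.

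The pathway works in a few steps. NO synthases make NO from arginine, and NO activates the soluble guanylyl cyclases of nearby cells. NPR1 and NPR2 are themselves guanylyl cyclases, opened by atrial and B-type peptides and by C-type peptide, whereas NPR3 has no cyclase and takes the peptides up and clears them. cGMP activates the kinases encoded by Prkg1 and Prkg2, and PDE5A hydrolyses it. In adipocytes this route is known to stimulate lipolysis and thermogenic genes beside the better known cAMP route, and NPR3 is abundant in fat.

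The 250 bases before the RefSeq start site of 2 receptors are shown because these receptors differ most in their spread within groups among the 3, Npr1 with the least and Npr3 with the most. They are given 5′ to 3′ on the gene's strand, from the GRCm38.p6 table, which held 6 of the 9 members. Nos2, Nos3 and Prkg2 were not matched. Capitals mark the matches to the motifs searched, on either strand: ACGTG and GCGTG, the core letters of hypoxia response elements, TGACGTCA, the cAMP response element, and TGACG, which lies within it. The Npr1 window is chr3:90465867-90466116 on the minus strand and the Npr3 window chr15:11907372-11907621, also on the minus strand.

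Npr1: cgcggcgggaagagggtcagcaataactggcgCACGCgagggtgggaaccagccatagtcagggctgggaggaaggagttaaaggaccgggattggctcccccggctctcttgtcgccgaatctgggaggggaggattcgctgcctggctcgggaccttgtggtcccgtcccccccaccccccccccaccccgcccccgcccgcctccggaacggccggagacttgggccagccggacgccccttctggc

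Npr3: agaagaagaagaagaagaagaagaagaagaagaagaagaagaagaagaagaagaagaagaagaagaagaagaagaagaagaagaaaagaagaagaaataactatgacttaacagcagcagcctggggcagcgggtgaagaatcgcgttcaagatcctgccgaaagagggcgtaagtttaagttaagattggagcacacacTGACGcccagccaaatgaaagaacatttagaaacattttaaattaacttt

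The Npr1 window had a G+C content of 70.4% and held 1 GCGTG, and the Npr3 window had 38.8%, a run of AAG repeats and 1 TGACG. Over 32851 promoter windows of this length, GCGTG was present in 28.2%, ACGTG in 16.6%, TGACG in 17.8% and TGACGTCA in 1.55%. The Npr2, Pde5a and both Prkg1 windows held none of these motifs, and the Nos1 window held 1 TGACG.

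The libraries held 22368316 to 35204631 reads counted in genes, and levels are given in CPM, the count in a library scaled to 1000000 reads after edgeR's trimmed mean of M-values (TMM) adjustment. The thermogenic adipocyte genes (8 genes, among them Ucp1 and Cidea) summed to 28.4–90.6 CPM at TN and 3350–8582 CPM in the cold, and adipocyte markers were present in every library, as the labelled tissue and exposures imply. Epas1, the targeted gene, averaged 360 ± 76.8 CPM in TN WT, 348 ± 53.8 in TN HIF2α AKO, 627 ± 101 in cold WT and 826 ± 139 in cold HIF2α AKO (SD, n = 3 each). Between genotypes Epas1 differed by −0.051 on the log2 scale at TN (SE 0.20) and by 0.40 in the cold (SE 0.20). In the cold every HIF2α AKO library was above every WT one, a lack of overlap seen in 7.53% of all genes. The study reports reduced Hif2a mRNA in adipose tissue of its knockout mice. Counts over the whole gene in tissue that also holds other cells could not check the deletion here, so genotypes are given as labelled. Libraries that stood apart were TN HIF2α AKO replicate 2 and cold HIF2α AKO replicate 1, in which 12 skeletal muscle genes summed to 2051 and 1799 CPM against 19.8–134 in the other 10, and TN WT replicate 3, in which 6 epithelial genes summed to 200 CPM against at most 10.3 elsewhere.

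Among the 9 genes, 8 had enough reads to be tested and Nos1 did not. Per kilobase of transcript, the mean level over the 12 libraries was 28.6 CPM per kb for Nos3, 28.5 for Npr1, 19.5 for Npr2 and 12.9 for Npr3, and the ranges of these 4 genes overlapped. Nos2 followed at 2.43 CPM per kb (1.51–3.94), overlapping Npr3 above it (3.25–25.7), and then Pde5a at 1.16 (0.901–1.37), apart from both its neighbours in this order. The kinases were level with each other at 0.600 for Prkg1 and 0.597 for Prkg2, and Nos1 was lowest at 0.0299. By these means, though not in every library, the endothelial synthase and both cyclase receptors were the most abundant transcripts of the set per length. The plot of CPM by library shows how far each gene moved between groups.

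**Figure D1:**
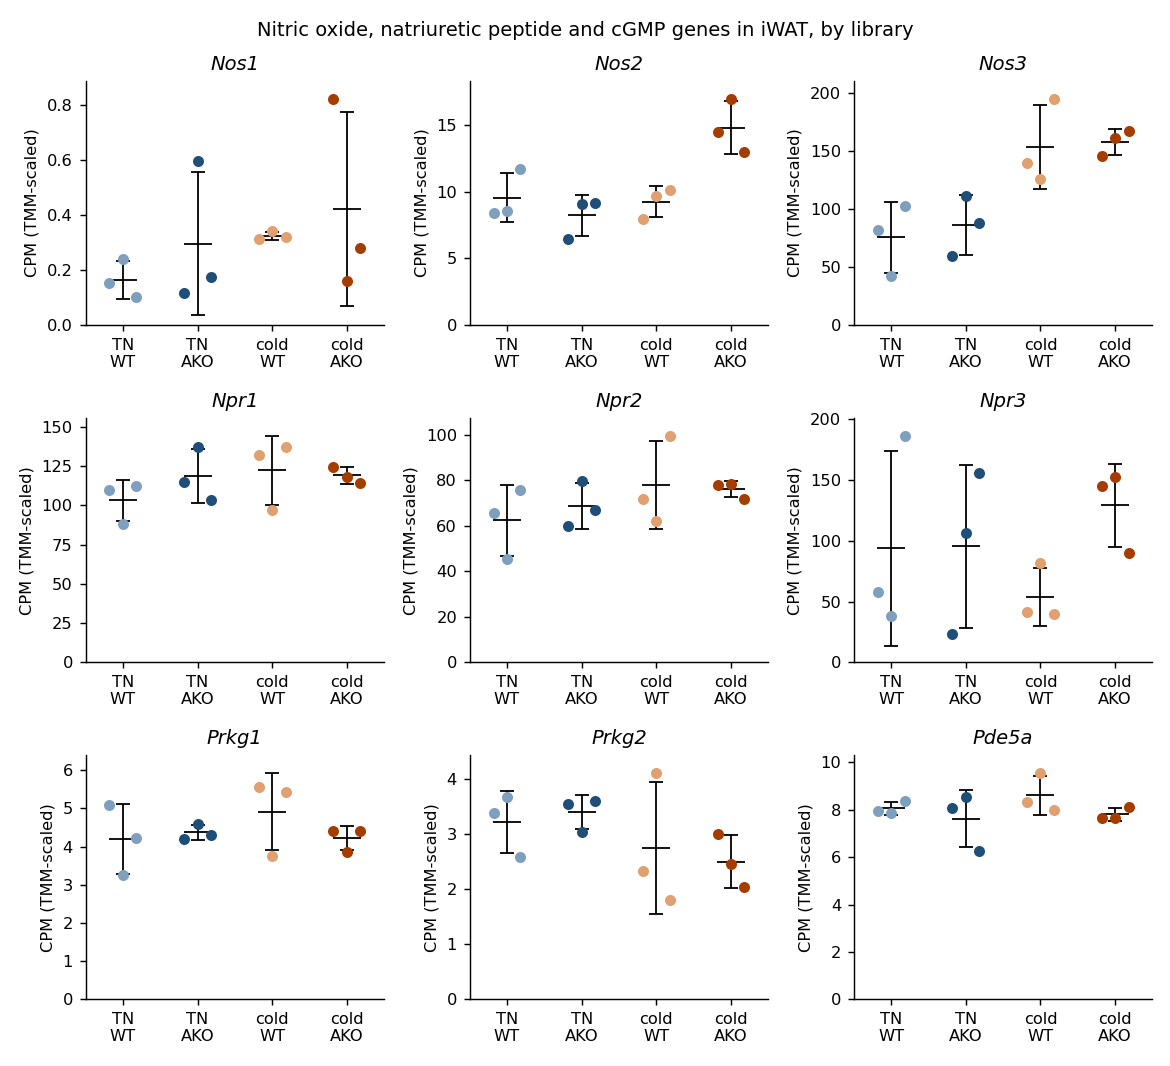
CPM of each gene (vertical axes, from 0, TMM-scaled) in the 4 groups; each point is 1 library, and the bars give the mean and SD of 3. Nos3 was higher in every cold library than in every TN library of its genotype, Nos2 was highest in the 3 cold HIF2α AKO libraries (13.0–16.9 CPM), and Npr3 ranged from 23.5 to 186 CPM.

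Upon cold, 1 of the 8 tested members changed in each genotype at an adjusted p under 0.05 (quasi-likelihood test of edgeR, Benjamini-Hochberg over 15306 genes). It was Nos3 in WT and Nos2 in HIF2α AKO, both higher. Over all genes tested, 21.3% were called in WT and 27.0% in HIF2α AKO. Without adjustment, at p under 0.05, 1 member passed in WT and 2 in HIF2α AKO, where 38.9% and 42.7% of all genes did. TN and cold libraries did not overlap for 1 member in WT and 3 in HIF2α AKO, beside 42.0% and 50.5% of all genes. The median log2 fold change of the 8 was 0.16 in WT and 0.089 in HIF2α AKO, beside −0.034 and −0.051 over all genes tested. These shares are no larger than the background in either genotype.

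**Figure D2:**
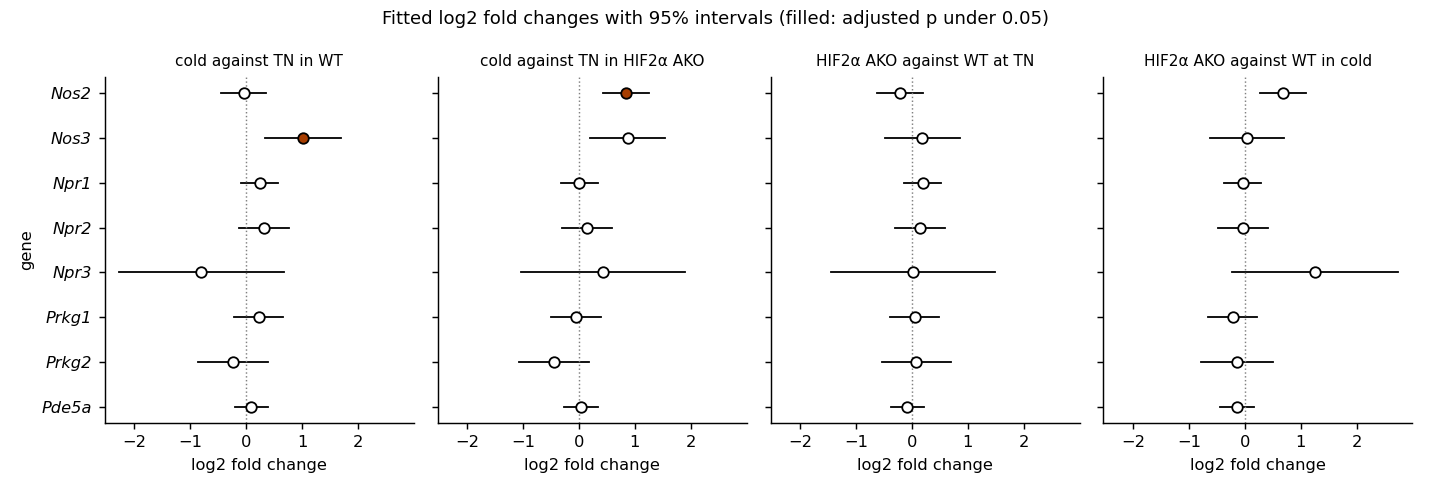
Log2 fold change (horizontal axis) of the 8 tested genes in 4 comparisons; points are edgeR estimates, lines their 95% intervals, and filled points have an adjusted p under 0.05. Nos3 in WT (1.02) and Nos2 in HIF2α AKO (0.84) are filled in the cold comparisons, and none is filled between genotypes.

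Nos3 encodes the endothelial NO synthase, and lies at chr5:24364810-24384474 (GRCm38, plus strand). In WT its level was 81.8, 42.2 and 103 CPM at TN and 140, 126 and 195 CPM in the cold. In HIF2α AKO it was 59.6, 111 and 87.6 CPM at TN and 145, 161 and 168 CPM in the cold. Every cold library was above every TN library in both genotypes. In WT the log2 fold change upon cold was 1.02 (SE 0.31, 95% interval 0.35 to 1.70, adjusted p = 0.0376 by edgeR's quasi-likelihood test), a 2.03-fold rise. In HIF2α AKO it was 0.87 (SE 0.31, 95% interval 0.20 to 1.55), and missed the threshold (adjusted p = 0.0540). The WT call was lost without TN WT replicate 1 (adjusted p = 0.0786), TN WT replicate 2 (0.102), cold WT replicate 1 (0.0600) or cold WT replicate 3 (0.147), and when edgeR fitted only the 2 WT groups (0.0868), while in HIF2α AKO the gene was called by DESeq2 (0.0182), by limma voom with sample weights (0.0109), by edgeR on the 2 groups alone (0.0203) and without TN HIF2α AKO replicate 2 (0.0378). The responses of the genotypes differed by −0.15 on the log2 scale (95% interval −1.09 to 0.80), and the level in the cold by 0.042 (SE 0.30).

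Cell type markers moved beside Nos3. All 10 endothelial markers were detected in every library, and they summed to 1043–1306 CPM at TN and 1250–1424 CPM in the cold, with 0 of 10 called upon cold in WT and 1 in HIF2α AKO. The 6 adipocyte markers, Adipoq among them, were all detected and summed to 4843–13069 CPM at TN and 16887–33589 CPM in the cold, with 3 called higher in WT and 2 in HIF2α AKO. Nos3 per 1000 CPM of endothelial markers was 40.5–91.8 at TN and 101–145 in the cold, without overlap. Per 1000 CPM of adipocyte markers it was 7.80–9.17 at TN and 5.76–8.14 in the cold. At TN, Nos3 and the adipocyte sum put all 15 pairs of the 6 libraries in the same order, which 3 of the 180 combinations of member, marker list and temperature did, and in the cold they did so for 11 of 15 pairs. For Nos3 and the endothelial sum the same order held for 12 of 15 pairs at TN and 11 in the cold. For the mural and smooth muscle marker sum it held for 12 pairs at TN and 12 in the cold. For the thermogenic adipocyte sum it held for 14 and 8. The order was mostly reversed for the lymphocyte sum, where it held for 2 and 2, and for the macrophage sum, with 2 and 4. It held for 8 and 4 with the progenitor and fibroblast sum and for 9 and 5 with skeletal muscle. With Schwann cell markers it held for 9 and 6, and with epithelial markers for 5 and 4. The part of any of these cell types in the difference was not tested. In whole tissue, fewer cells of a type and less RNA per cell cannot be told apart. Exons of Nos3 share 294 bases with Atg9b and 1040 with Gm15587, both on the opposite strand, and whether reads were counted by strand is not given in the sources used here. Exons on the opposite strand also overlap Npr1 (402 bases, Gm16048), Npr3 (321, Gm5144), Nos1 (268, Gm26995), Npr2 (59, Gm12473) and Pde5a (55, 4930447N08Rik).

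**Figure D3:**
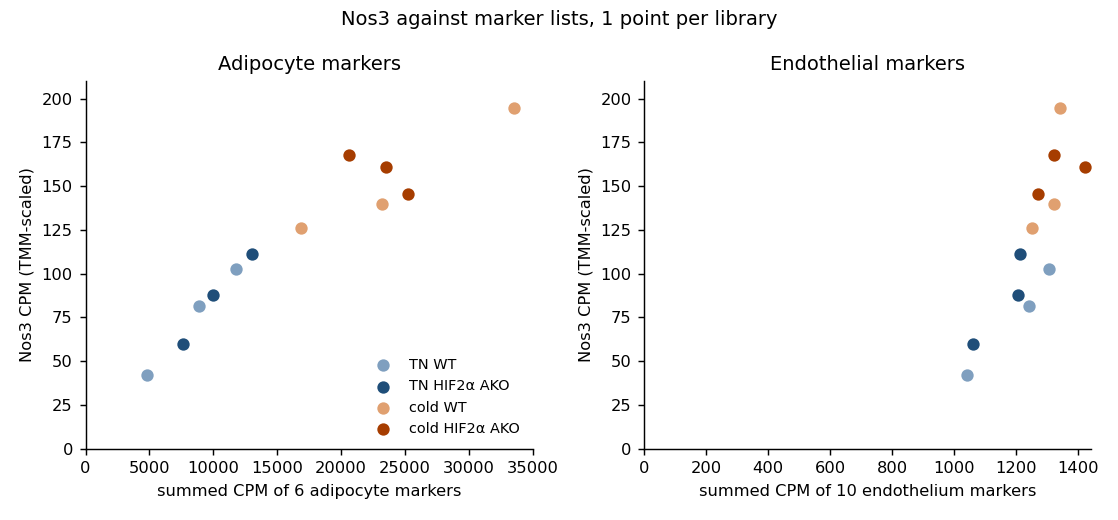
Nos3 level in CPM (vertical axes) against the summed CPM of 6 adipocyte markers and of 10 endothelial markers (horizontal axes, from 0), with 1 point per library coloured by group. Nos3 spans 42.2 to 195 CPM while endothelial markers span 1043 to 1424 CPM and adipocyte markers 4843 to 33589 CPM.

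Nos2 encodes the inducible NO synthase, known best from activated macrophages, and lies at chr11:78920787-78960254 (plus strand). It stood at 8.38, 8.57 and 11.7 CPM in TN WT and at 7.92, 9.70 and 10.1 CPM in cold WT. It stood at 6.47, 9.11 and 9.15 CPM in TN HIF2α AKO and at 14.4, 16.9 and 13.0 CPM in cold HIF2α AKO. The WT groups overlapped, and the cold HIF2α AKO libraries were above all 9 others. Nos2 rose upon cold in HIF2α AKO by 0.84 on the log2 scale (SE 0.19, 95% interval 0.43 to 1.25, adjusted p = 0.0096 by edgeR's quasi-likelihood test), or 1.79-fold. The call was kept without each of the 6 libraries in turn (adjusted p 0.0141 to 0.0411) and without both libraries with muscle transcripts (0.0459). In WT the log2 fold change was −0.044 (95% interval −0.46 to 0.37).

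The genotypes were set side by side for Nos2 at each temperature. In the cold, the libraries labelled HIF2α AKO were 0.68 higher on the log2 scale (SE 0.19, unadjusted p = 0.0040 and adjusted p = 1.00 by edgeR), and no HIF2α AKO library overlapped a WT one. At TN the difference was −0.21 (SE 0.19). The responses to cold differed by 0.89 (SE 0.26, 95% interval 0.30 to 1.47, unadjusted p = 0.0064), which did not pass adjustment over all genes (adjusted p = 1.00 by edgeR). Leaving out 1 library at a time, this difference between responses ranged from 0.71 to 0.97. It was lowest without TN WT replicate 3, the library with epithelial transcripts. Without that library the difference at TN was −0.038 and the WT change upon cold 0.13. The study lists Nos2 among genes it picked from these same libraries, so its direction in the cold is not independent evidence. The 9 macrophage markers, all detected in every library, summed to 2569–2745 CPM in TN HIF2α AKO and 1471–1684 CPM in cold HIF2α AKO, with 0 called higher and 2 lower. They summed to 1574–2763 CPM in TN WT and 1309–2564 CPM in cold WT, with 0 called higher and 0 lower. The 8 thermogenic genes summed to 5622–8582 CPM in cold HIF2α AKO and 3350–4864 CPM in cold WT, and the part of either cell type in the Nos2 difference was not tested.

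Nos1, the neuronal NO synthase, also made in skeletal muscle, lies at chr5:117781032-117958840 (plus strand) and had 94 reads in all. Its counts were 6, 7 and 3 in TN WT and 3, 19 and 5 in TN HIF2α AKO. They were 7, 8 and 8 in cold WT and 17, 4 and 7 in cold HIF2α AKO. The counts of 19 and 17 were those of the 2 libraries with skeletal muscle transcripts, and the other 10 libraries had 3 to 8 reads. Nos1 was not tested, and the part of muscle tissue in its counts was not tested either.

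**Figure D4:**
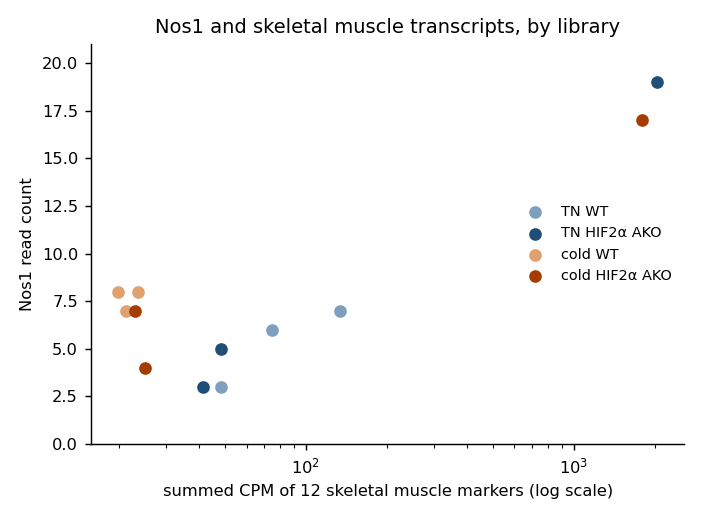
Nos1 read count (vertical axis) against the summed CPM of 12 skeletal muscle markers (horizontal axis, log scale), with 1 point per library coloured by group. The 2 libraries with 17 and 19 reads are the 2 above 1000 CPM, and the other 10 have at most 8 reads and 134 CPM.

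The receptors came next. Npr1 encodes the receptor for atrial and B-type peptides (chr3:90450591-90465866, minus strand), and was even across groups. Its level was 110, 88.4 and 112 CPM in TN WT and 132, 97.4 and 137 CPM in cold WT. It was 115, 137 and 104 CPM in TN HIF2α AKO and 125, 118 and 114 CPM in cold HIF2α AKO. TN and cold overlapped within each genotype, and the log2 fold change upon cold was 0.24 in WT (95% interval −0.089 to 0.57) and 0.0066 in HIF2α AKO (−0.32 to 0.34), so that a change beyond 1 on the log2 scale lay outside both intervals.

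Npr2, the receptor for C-type peptide (chr4:43631935-43651244, plus strand), was at 65.8, 45.5 and 75.8 CPM in TN WT and at 72.0, 62.1 and 99.4 CPM in cold WT. It was at 60.0, 79.7 and 66.8 CPM in TN HIF2α AKO and at 78.0, 78.4 and 72.0 CPM in cold HIF2α AKO. TN and cold overlapped in both genotypes, with log2 fold changes of 0.32 in WT (95% interval −0.13 to 0.77) and 0.15 in HIF2α AKO (−0.30 to 0.59). Npr2 was lowest in TN WT replicate 2 (45.5 CPM), the library that was also lowest for Nos3 (42.2 CPM), Npr1 (88.4 CPM) and Prkg1 (3.26 CPM), and whose adipocyte marker sum was the lowest of the 12 at 4843 CPM. Npr2 put all 15 pairs of TN libraries and 13 of 15 pairs of cold libraries in the order of the adipocyte sum. For the lymphocyte sum the order was the same for only 2 pairs at TN and 2 in the cold. For the macrophage sum it was also 2 and 2.

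Npr3, the clearance receptor (chr15:11839896-11907287, minus strand), varied most among the 8 tested genes. It was at 57.6, 38.2 and 186 CPM in TN WT and at 41.3, 81.6 and 39.4 CPM in cold WT. It was at 23.5, 107 and 156 CPM in TN HIF2α AKO and at 145, 152 and 90.1 CPM in cold HIF2α AKO. Low and high libraries lay within the same TN groups, and the highest library was 7.91-fold above the lowest. The SD of log2 CPM within groups was 1.00, beside a median of 0.22 over all genes tested, and 98.7% of the tested genes varied less. The highest level was in TN WT replicate 3, the library with epithelial transcripts (200 CPM), and the next highest, 156 CPM, was in TN HIF2α AKO replicate 3 (6.79 CPM of those transcripts). The part of epithelial tissue in the Npr3 level was not tested.

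This spread bears on every Npr3 comparison. In the cold, Npr3 was higher in each library labelled HIF2α AKO than in any WT library, by 1.26 on the log2 scale (SE 0.68, 95% interval −0.23 to 2.75, unadjusted p = 0.091 and adjusted p = 1.00 by edgeR). At TN the difference was 0.023 (SE 0.67). Upon cold it was −0.80 in WT (SE 0.67, 95% interval −2.28 to 0.68) and 0.44 in HIF2α AKO (SE 0.67, −1.03 to 1.90), and the responses differed by 1.23 (95% interval −0.85 to 3.32). Leaving out TN WT replicate 3 turned the WT value to 0.17 and the difference at TN from 0.023 to 0.99, and took the difference between responses to 0.26. At TN the level of Npr3 put all 15 pairs of libraries in the same order as the sum of 10 mural and smooth muscle markers (557–846 CPM), and in the cold 8 of 15 pairs. For the macrophage sum the order of Npr3 was the same for 1 pair at TN and 6 in the cold.

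Prkg1 encodes the kinase of smooth muscle and other cells that carries most cGMP effects (chr19:30564489-31765033, minus strand). It ranged from 3.26 to 5.09 CPM in TN WT, 4.21 to 4.58 in TN HIF2α AKO, 3.76 to 5.55 in cold WT and 3.86 to 4.41 in cold HIF2α AKO, on 88 to 200 reads a library. The groups overlapped, with log2 fold changes upon cold of 0.23 (SE 0.20) in WT and −0.049 (SE 0.20) in HIF2α AKO. Prkg2, the membrane-bound kinase known from intestine, cartilage and brain (chr5:98929773-99037351, minus strand), had 45 to 133 reads a library. It was at 3.39, 3.67 and 2.59 CPM in TN WT and at 2.33, 4.10 and 1.81 CPM in cold WT. It was at 3.54, 3.05 and 3.60 CPM in TN HIF2α AKO and at 3.00, 2.45 and 2.04 CPM in cold HIF2α AKO. The cold HIF2α AKO libraries were all below the TN ones of that genotype, and the WT groups overlapped. The log2 fold change was −0.44 in HIF2α AKO (SE 0.29, 95% interval −1.08 to 0.19, adjusted p = 0.256 by edgeR) and −0.23 in WT (SE 0.29).

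Pde5a, which ends the cGMP signal, lies at chr3:122728947-122859374 (plus strand) and was the steadiest member, with an SD of log2 CPM within groups of 0.14. Its level was 7.95, 7.85 and 8.36 CPM in TN WT and 8.32, 9.53 and 7.96 CPM in cold WT. It was 8.06, 8.54 and 6.26 CPM in TN HIF2α AKO and 7.65, 7.64 and 8.09 CPM in cold HIF2α AKO. The groups overlapped, and the log2 fold change upon cold was 0.096 in WT (95% interval −0.21 to 0.40) and 0.033 in HIF2α AKO (−0.27 to 0.34). Over the 12 libraries Pde5a and Npr1 had the narrowest ranges of the 9 genes, 1.52-fold and 1.55-fold.

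Between genotypes, edgeR called 0 of 8 members at TN and 0 of 8 in the cold, where 0.00653% of all genes, 1 gene each time, were called. DESeq2 and limma voom also called 0. At an unadjusted p under 0.05 there were 0 members at TN and 1 in the cold (Nos2), beside 2.91% and 2.95% of all genes. The genotypes did not overlap for 0 members at TN and for Nos2 and Npr3 in the cold, beside 7.69% and 7.53% of all genes. The test of the difference in response to cold called 0 members and 0% of all genes, with 1 member (Nos2) and 2.14% of all genes at an unadjusted p under 0.05. With 3 libraries a group, the exact permutation test of a single gene cannot go below p = 0.10.

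Other genes of the pathway were read from 5 lists of 50 genes in all, of which 41 were tested. Upon cold, 3 rose and 3 fell in WT, and 6 rose and 4 fell in HIF2α AKO (adjusted p under 0.05 by edgeR), which is 14.6% and 24.4% of those tested beside 21.3% and 27.0% of all genes. In WT the count dropped to 2 on leaving out TN replicate 1, and to 0 on leaving out TN replicate 2 or cold replicate 3, while calls over all genes went from 3259 to 1810, 1381 and 1469. The count in HIF2α AKO was 1, 3, 2 and 5 without TN replicate 1, TN replicate 3, cold replicate 1 and cold replicate 2 of that genotype, and 0 without both libraries with muscle transcripts. Calls over all genes in these fits were 1735, 2450, 1613, 2810 and 1514, against 4138 with all libraries. Between genotypes 0 of the 41 were called at either temperature, and 1 had an unadjusted p under 0.05 at each.

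**Figure D5:**
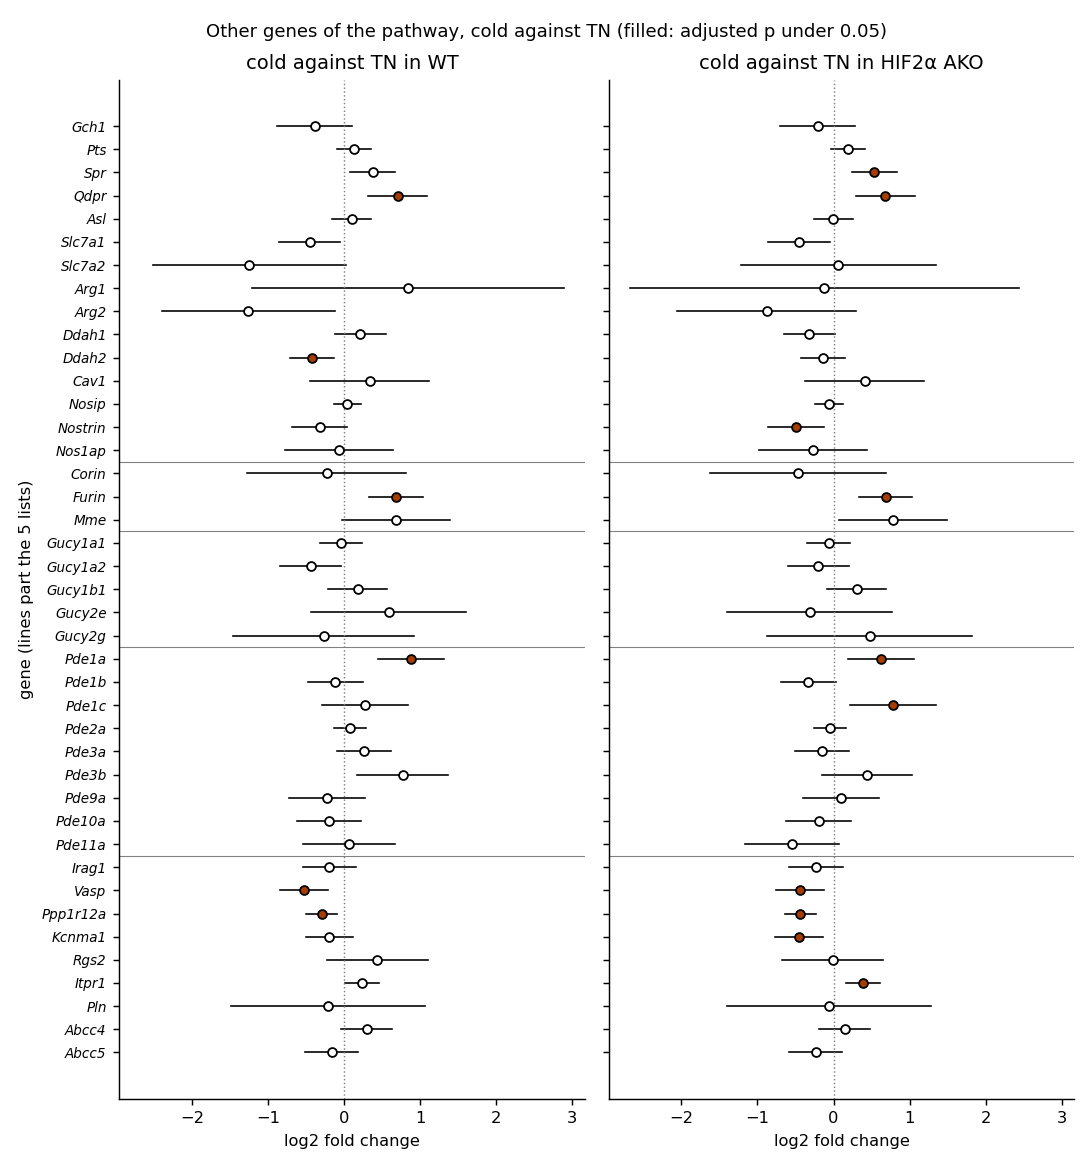
Log2 fold change upon cold (horizontal axes) of the 41 tested genes of the 5 pathway lists in WT and HIF2α AKO; points are edgeR estimates, lines 95% intervals, and filled points have an adjusted p under 0.05. There are 6 filled points in WT and 10 in HIF2α AKO, and Qdpr, Furin, Pde1a, Vasp and Ppp1r12a are filled in both.

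In the list for NO synthesis and supply, 1 of 15 rose and 1 fell in WT, and 2 rose and 1 fell in HIF2α AKO. The gene called in both was Qdpr, which recycles the NO synthase cofactor tetrahydrobiopterin. Its level was 57.4, 45.7 and 69.3 CPM in TN WT and 89.3, 81.3 and 111 CPM in cold WT, and 52.3, 71.3 and 56.8 CPM in TN HIF2α AKO and 110, 91.3 and 88.1 CPM in cold HIF2α AKO. The groups did not overlap in either genotype, with log2 fold changes of 0.71 (SE 0.18, adjusted p = 0.0188) and 0.68 (SE 0.18, adjusted p = 0.0186) by edgeR. Gch1, the first enzyme of that cofactor's synthesis, was not called in either. Ass1, which makes the arginine precursor argininosuccinate, had 0 reads in every library as counted. The gene annotation used is not given, so absence cannot be told from reads not assigned to this gene.

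Of the natriuretic peptides, Nppb had 0 reads in every library, which allows up to 3 reads a library by counting error alone, Nppc had 0 or 1 and Nppa 2 to 7. Of the 3 tested genes of that list, Furin, a protease that cuts prohormones, was higher in the cold in both genotypes. Its level was 115, 93.0 and 134 CPM in TN WT and 172, 156 and 221 CPM in cold WT, and 104, 131 and 129 CPM in TN HIF2α AKO and 197, 185 and 203 CPM in cold HIF2α AKO. There was no overlap, and the log2 fold change was 0.69 in WT (SE 0.16, adjusted p = 0.0136) and 0.68 in HIF2α AKO (SE 0.16, adjusted p = 0.0121) by edgeR.

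No guanylyl cyclase was called among 5 tested (1 with an unadjusted p under 0.05 in WT and 0 in HIF2α AKO by edgeR). The members of that list with the smallest p were Gucy1a2 and Gucy1b1, subunits of the soluble, NO-activated cyclase. Gucy1a2 was at 8.30, 8.84 and 9.72 CPM in TN WT and at 5.68, 6.58 and 7.52 CPM in cold WT, without overlap (log2 fold change −0.44, SE 0.18, adjusted p = 0.10 by edgeR). In HIF2α AKO it was at 5.38–8.63 CPM at TN and 5.79–6.78 CPM in the cold. Gucy1b1 was at 12.1–15.5 CPM in TN WT, 14.3–17.2 in cold WT, 10.2–17.2 in TN HIF2α AKO and 16.6–19.2 in cold HIF2α AKO, with overlap in both genotypes.

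Among the 9 other phosphodiesterases, 1 rose in WT and 2 in HIF2α AKO, and 0 fell. Pde1a, a calmodulin-stimulated enzyme that hydrolyses cGMP and cAMP, rose in both. Its level was 23.9, 18.4 and 28.0 CPM in TN WT and 44.8, 34.6 and 50.2 CPM in cold WT, and 21.7, 32.1 and 29.3 CPM in TN HIF2α AKO and 48.8, 43.7 and 35.8 CPM in cold HIF2α AKO. The log2 fold changes were 0.88 (SE 0.20, adjusted p = 0.0120) and 0.62 (SE 0.20, adjusted p = 0.0403) by edgeR, without overlap in either genotype.

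Of the 9 kinase partners, substrates and cGMP exporters, 2 fell in WT, and 3 fell and 1 rose in HIF2α AKO. Vasp, an actin regulator and a substrate of the cGMP-dependent kinases, was at 161, 177 and 156 CPM in TN WT and 113, 127 and 102 CPM in cold WT. It was at 176, 134 and 140 CPM in TN HIF2α AKO and 90.4, 120 and 120 CPM in cold HIF2α AKO. The cold libraries were all below the TN ones, with log2 fold changes of −0.53 in WT (SE 0.14, adjusted p = 0.0255) and −0.44 in HIF2α AKO (SE 0.14, adjusted p = 0.0415) by edgeR. Ppp1r12a, the targeting subunit of myosin phosphatase, fell as well, from 71.6–84.7 to 61.3–66.3 CPM in WT (log2 fold change −0.29, SE 0.091, adjusted p = 0.0420) and from 75.5–83.9 to 54.1–63.3 CPM in HIF2α AKO (−0.44, SE 0.091, adjusted p = 0.0073). Genes called in only 1 genotype, named after their values were seen, were Ddah2 (lower) in WT and Spr, Pde1c and Itpr1 (higher) and Nostrin and Kcnma1 (lower) in HIF2α AKO. None of these 6 passed the adjusted test of a difference between the genotypes' responses.

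For each tested member the genes with the most similar pattern were found by Pearson's r of log2 CPM over the 12 libraries, which share temperature groups and marker levels. These values are a description only. For Nos3 they were Ltc4s (r = 0.99), Gm9895 (0.98) and Yipf3 (0.98), and for Npr2 Creld1 (0.98), Maob (0.97) and Orm1 (0.97). For Npr3 they were Prelp (0.97), Grb14 (0.94) and Tmem45b (0.93), and for Npr1 Rab13 (0.95), Tmem106c (0.92) and Fzd8 (0.91). For Nos2 they were Nes (0.91), Akap2 (0.89) and Qsox2 (0.89). The likeness was weaker for Prkg2, led by Rapsn (0.90), for Prkg1, led by Sdf4 (0.89), and for Pde5a, led by Klf10 (0.85).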

How the data were processed

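Read counts per gene were deposited for 12 iWAT libraries. Per the labels and methods, the authors trimmed reads with Trim Galore 0.4.4, aligned them to GRCm38/mm10 with STAR 2.6.1d and counted them with HTSeq 0.13.5; the gene annotation and strand setting are not given in the sources used here. Rows that name no gene held 21.9% to 27.04% of each column's total and were left out. The counts were tested with edgeR 4.0.16 (R 4.3.3), by the quasi-likelihood test on all 12 libraries with 1 coefficient per group, TMM scaling and filterByExpr (minimum count 10, minimum total 15), which kept 15306 of 23420 genes. P-values were adjusted by Benjamini-Hochberg over those genes with a limit of 0.05. Standard errors were derived from each log2 fold change and the F statistic of its test, and 95% intervals were built from them with t quantiles. Alternatives were DESeq2 1.42.0, limma 3.58.1, other scalings, no filter, fits on 2 groups, a replicate block and leaving out libraries. Transcript lengths and positions are from the GENCODE annotation of GRCm38, and promoter windows from RefSeq. Nothing in the labels says that replicates are separate mice, so p-values measure only the spread between these libraries, which may be partly technical; no pair agreed within sampling noise. Counts give counting error only where a single library is concerned. The fits were also run on simulated counts with far fewer genes changed than are called upon cold here. Such counts do not check the scaling under a shift of this size. The members and gene lists were chosen with earlier results of these data known. All 9 members are named, and of each pathway list those called upon cold in both genotypes, or otherwise the 2 with the smallest unadjusted p.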

Additional observations from a re-analysis of the deposited data

How the results depend on the processing

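Replicate numbers were shared by the groups, and no steady pairing of libraries was seen. Of 18 same-numbered pairs, 5 had deviations correlated above 0.1 (range −0.43 to 0.39). With 3 libraries a group these values cannot exclude a pairing. A fit with the replicate block kept the members called upon cold at 1 in each genotype and at 0 in the other comparisons, took the other pathway genes called in HIF2α AKO from 10 to 5, and moved the Npr3 difference at TN from 0.023 to −0.044. Among other settings, members called in HIF2α AKO came to 2 (Nos2 and Nos3) with DESeq2, with limma voom and with only the 2 groups fitted, and members called in WT to 0 with only the 2 groups fitted. Other pathway genes called in WT were 2 with only the 2 groups fitted, and in HIF2α AKO 6 without the filter on low counts and 0 without both libraries with muscle transcripts, a setting chosen after seeing the data. Calls over all genes moved as well: in HIF2α AKO they were 4138 with the reported settings, 5336 with DESeq2, 6140 with limma voom, 4303 with only the 2 groups fitted, 3568 without the filter, 3313 with the block and 1514 without both libraries with muscle transcripts, and in WT 3259 with the reported settings and 1752 with only the 2 groups fitted. The cause of these shifts was not tested.

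Some values changed sign, and not all of them were near 0. Upper quartile scaling, which moved the median of all genes upon cold by −0.14 in WT and −0.091 in HIF2α AKO, gave −0.038 for Pde5a in WT, −0.058 for Pde5a and −0.083 for Npr1 in HIF2α AKO, and −0.014 for Npr3 between genotypes at TN. Limma voom gave 0.041 for Nos2 and −0.029 for Prkg1 upon cold in WT, and 0.015 for Nos2 between genotypes at TN. With the reported settings these were −0.044, 0.23 (SE 0.20) and −0.21 (SE 0.19). The Npr3 difference at TN was −0.062 without both libraries with muscle transcripts.

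Leaving out 1 library at a time, members called ranged from 0 to 1 in WT and 1 to 2 in HIF2α AKO, and other pathway genes called from 0 to 8 in WT and 1 to 9 in HIF2α AKO, while calls over all genes ranged from 1381 to 3722 and from 1613 to 4155. In WT the log2 fold change upon cold ranged from −0.13 to 0.13 for Nos2, −1.24 to 0.17 for Npr3, −0.011 to 0.15 for Pde5a and −0.67 to 0.00082 for Prkg2. In HIF2α AKO it ranged from −0.082 to 0.13 for Npr1, −0.024 to 0.99 for Npr3, −0.091 to 0.12 for Pde5a and −0.081 to 0.012 for Prkg1. Between genotypes, Npr3 at TN ranged from −0.53 to 0.99 and Nos3 in the cold from −0.054 to 0.25. Depth kept Nos1 (3 to 19 reads a library) out of the test.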
